A study of Mus musculus with 15 samples.

Results

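In untreated CD4+ T cells, 327 regions of accessible chromatin carried a peak in all 4 wild-type libraries and in none of the 3 knockout libraries. They were found by merging the peak lists of 15 libraries (overlap of at least 1 bp) into 111393 regions, of which 83743 had a peak in at least 2 libraries. The 327 regions make up 0.39% of those 83743 regions. They were chosen by the untreated calls themselves, so their difference at 0 h is the rule and not a finding. The 72 h libraries took no part in the choice.

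Accessibility was measured by ATAC-seq, which tags open DNA with the Tn5 transposase, in mouse CD4+ T cells of genotype IRF5+/+ (wild type, WT) or IRF5-/- (knockout, KO). Untreated cells (0 h) gave 4 wild-type and 3 knockout libraries, the latter numbered 1, 3 and 4, and cells activated in vitro for 72 h gave 4 libraries of each genotype. The labels call the libraries of a group biological replicates but do not name separate animals or cultures, so a p-value measures the spread between these libraries. They do not give the strain, the age of the mice, the deleted part of Irf5 or the activating agent, and untreated cells were taken at 0 h only, so activation cannot be told apart from time in culture.

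IRF5 is a transcription factor best known for relaying Toll-like receptor signals in myeloid cells and B cells, where it drives inflammatory cytokine genes. Interferon regulatory factors bind GAAA-type elements in promoters and enhancers. Open chromatin far from promoters often marks enhancers, which differ more between cell states than promoters do.

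All 10 CD4 T cell marker genes examined (among them Cd3e, Cd4, Cd28, Lck and Bcl11b) had a peak at the gene in every library of each group. Of 7 B cell markers, 4 had no peak in any untreated library, with Cd79b, Ms4a1 and Cd22 among these, while Cd79a and Pax5 had one in all 15 libraries and Blk in 4 untreated wild-type and 1 untreated knockout library. Of 7 myeloid markers, 4 had a peak in all 4 untreated wild-type and 3 in all 3 untreated knockout libraries, with Lyz2 and Adgre1 at 0 in every library. Of 7 CD8 and NK cell markers, 4 and 2 had a peak in all of them, with Klrb1c and Ncr1 at 0. None of these 31 genes holds one of the 327 regions, and the part of other cell types was not tested. Between 20.5 M and 29.0 M fragments per library remained after removal of duplicates, and the untreated lists held 39807 to 47790 wild-type and 29994 to 45589 knockout peaks. A missing peak means that the signal stayed under the caller's threshold, not that the region was closed.

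Few of the 327 regions lie at promoters: 16 overlap a promoter window of 300 bases (250 before to 50 after a gene's start, RefSeq, GRCm38.p6, the assembly of mm10), which is 4.89%, against 13.9% of the 83743 regions. These 16 regions touch 18 windows. The 6 windows shown are the 5 whose regions score highest in the merged wild-type list, and Gm46910, the only other with an interferon-regulatory-factor word. They were picked after the values were seen, since sequence was at hand for promoter windows only. Capitals mark matches, on either strand, to the IRF word GAAANNGAA, the AP-1 word TGANTCA, the RUNX word TGTGGTT, the ETS word CCGGAAGT, the TCF/LEF word CTTTGAT, the GATA word, which is AGATAA, or the KLF/SP word GGGNGGGG.
Akap7: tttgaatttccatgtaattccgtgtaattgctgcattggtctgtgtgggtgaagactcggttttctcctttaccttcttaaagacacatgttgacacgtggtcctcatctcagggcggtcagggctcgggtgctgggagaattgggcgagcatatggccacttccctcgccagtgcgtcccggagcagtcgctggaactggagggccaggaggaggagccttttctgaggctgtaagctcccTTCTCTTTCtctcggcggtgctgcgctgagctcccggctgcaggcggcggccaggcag
Efna1: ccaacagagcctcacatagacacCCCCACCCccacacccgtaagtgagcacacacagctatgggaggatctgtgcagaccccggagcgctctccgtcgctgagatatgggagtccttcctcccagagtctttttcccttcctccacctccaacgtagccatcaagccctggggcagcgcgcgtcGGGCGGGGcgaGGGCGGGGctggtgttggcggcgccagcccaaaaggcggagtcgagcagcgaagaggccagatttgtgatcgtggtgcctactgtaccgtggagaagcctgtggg
Zfp947: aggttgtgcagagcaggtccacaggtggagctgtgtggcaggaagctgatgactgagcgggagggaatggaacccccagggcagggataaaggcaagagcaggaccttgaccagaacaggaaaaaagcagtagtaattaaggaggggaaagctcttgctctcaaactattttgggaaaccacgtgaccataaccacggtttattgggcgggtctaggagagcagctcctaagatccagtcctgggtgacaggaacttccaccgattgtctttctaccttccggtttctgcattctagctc
Rin1: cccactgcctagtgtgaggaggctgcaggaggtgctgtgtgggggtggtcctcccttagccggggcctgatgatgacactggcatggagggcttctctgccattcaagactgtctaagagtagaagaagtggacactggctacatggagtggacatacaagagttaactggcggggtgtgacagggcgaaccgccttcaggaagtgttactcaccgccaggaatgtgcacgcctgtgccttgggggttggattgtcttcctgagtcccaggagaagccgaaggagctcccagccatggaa
Slco4c1: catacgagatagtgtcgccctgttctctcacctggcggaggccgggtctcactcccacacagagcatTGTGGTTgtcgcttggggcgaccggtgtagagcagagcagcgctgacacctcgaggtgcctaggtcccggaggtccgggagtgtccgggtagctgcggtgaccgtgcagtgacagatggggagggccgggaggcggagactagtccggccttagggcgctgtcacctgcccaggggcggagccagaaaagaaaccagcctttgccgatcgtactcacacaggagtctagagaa
Gm46910: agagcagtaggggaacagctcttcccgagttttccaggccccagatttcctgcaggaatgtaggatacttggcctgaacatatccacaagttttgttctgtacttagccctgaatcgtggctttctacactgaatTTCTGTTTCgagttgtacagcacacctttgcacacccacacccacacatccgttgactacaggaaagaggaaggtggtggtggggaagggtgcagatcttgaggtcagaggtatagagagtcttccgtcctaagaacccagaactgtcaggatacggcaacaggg

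Akap7, which encodes an anchor of protein kinase A, has its window on the minus strand of chromosome 10 (25200100 to 25200399), with an IRF word at bases 243 to 251. Efna1, an ephrin ligand, has its window on the minus strand of chromosome 3 (89279596 to 89279895), with 3 KLF/SP words. Zfp947, a zinc finger gene, lies on the minus strand of chromosome 17 (22165928 to 22166227), and Rin1, a Ras effector, on the plus strand of chromosome 19 (5050565 to 5050864). Neither of these last windows holds any of the 7 words. Slco4c1, an organic anion transporter, lies on the minus strand of chromosome 1 (96872122 to 96872421) and has a RUNX word at bases 68 to 74. The window of the non-coding gene Gm46910, on the plus strand of chromosome 5 (41762385 to 41762684), has an IRF word at bases 136 to 144.

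An IRF word was found in 2 of the 18 windows (11.1%), against 8.56% of all 32851 promoter windows and 6.88% of the 15174 windows in tested regions. KLF/SP words were found in 7 of 18 (38.9%), which is above the 33.2% of all windows and below the 49.3% of those in tested regions. GATA words were found in 3 (16.7%, against 11.2% and 6.03%) and RUNX words in 2 (11.1%, against 5.27% and 3.88%). A window can reach beyond its region. A match lay inside the region itself in 1 of the 3 windows for GATA and 5 of the 7 for KLF/SP. For IRF and for RUNX it did so in 2 of 2. A region joins the peaks of all 15 libraries, so such a match need not lie in an untreated wild-type peak. AP-1, ETS and TCF/LEF words were found in 0 of 18, against 7.81%, 3.89% and 3.73% of all windows and 5.27%, 7.49% and 2.45% of those in tested regions. With 18 windows a single match moves a share by several percentage points, and a match is a run of letters, not a bound site. The 18 windows had a median of 8 CpG dinucleotides, close to the 7 of all windows and below the 21 of the 15174 windows that lie in tested regions.

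The regions were weak in the wild-type cells that define them. The median height of their peaks, the authors' pileup of fragments at the summit, was 15, 22, 19 and 19 in wild-type libraries 1 to 4, where the lists as a whole had medians of 41, 48, 46 and 45. Ranked by −log10 q, the caller's significance after correction, their median peak stood at the 11.2, 20.8, 17.9 and 20 percentile of its own list. Between 97.6% and 99.4% of them lay in the lower part of the list, at or under its median. The peaks were also narrow, with median widths of 304, 377, 277 and 326 bp against 630, 613, 490 and 572 bp for the lists. These scores chose the regions in part and are a description.

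Strength rose with each untreated knockout library that also had a peak. The 327 regions had a median mean percentile of 17 over the 4 wild-type lists, the 1568 regions with a peak in 1 knockout library 23.6, the 6347 with 2 knockout libraries 33.8 and the 26133 with all 3 knockout libraries 70.8. The merged knockout list, called by the authors on the pooled libraries, had a peak at 62.1%, 96.4% and 99.9% of the first 3 groups in the same order, and at all 26133 of the last. On the other side of the rule stood 1045 regions with a peak in 3 wild-type libraries and no knockout library, 47.7% of which had a merged knockout peak. Of the 1568 regions just outside, 994 had their single knockout peak in library 1, 532 in library 4 and 42 in library 3, the library with the shortest list.

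**Figure D1:**
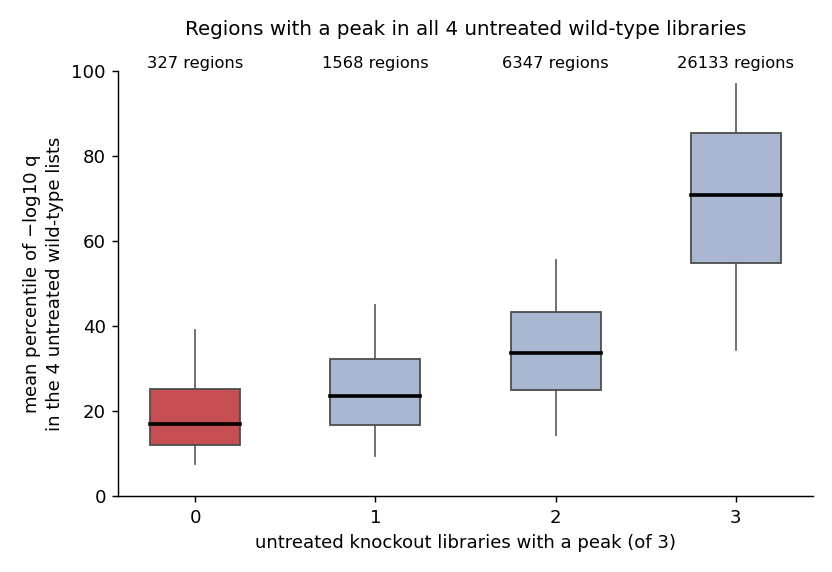
Mean percentile of −log10 q within the 4 untreated wild-type lists (vertical axis) for regions with a peak in all 4, by the number of untreated knockout libraries with a peak (horizontal axis). Boxes span the quartiles, black lines are medians and thin lines run from the 5 to the 95 percentile; the 327 regions (red) had the lowest median, 17.

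The opposite pattern, a peak in all 3 knockout and no wild-type library, was met by 4 regions (0.00478% of the 83743). These included regions inside Tgds and Rsbn1l and one 125614 bp from H2al2a. None of these 4 had a peak in any activated library. The 2 counts are not on equal terms, since the rule asks for 4 libraries in one direction and 3 in the other. The list of knockout library 3 (29994 peaks) was also shorter than every wild-type list, while those of knockout libraries 1 and 4 (45589 and 42357) were longer than that of wild-type library 1 (39807). With the strongest 29994 peaks of every library the counts became 84 and 30. Leaving out knockout library 1, 3 or 4 gave 1321, 369 or 860 regions in place of 327, and leaving out wild-type library 1, 2, 3 or 4 gave 864, 481, 534 or 482. The count moved most without knockout library 1.

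Most of the regions lie away from gene ends. Of the 327, 39 (11.9%) lie within 1 kb of the boundary of a protein-coding gene, 165 (50.5%) lie deeper in a gene body and 123 (37.6%) lie outside genes. Of the 83743 tested regions, 18.3%, 45.7% and 36.1% did so. Among the 34048 regions with a peak in all 4 wild-type and at least 1 knockout library at 0 h, 32.3% lay within 1 kb of a boundary. That share was 10.7% for the 1568 regions with 1 knockout library, 13.3% for the 6347 with 2 and 38.2% for the 26133 with 3. It was 10.5% for regions with a peak in 3 wild-type libraries and no knockout library. The low share is therefore not particular to the 327. The reference table has no exons or introns, so the gene body is the finest class. Merged regions were 272 to 3270 bp wide, with a median of 670 bp against 651 bp for tested regions. The nearest peak of an untreated knockout library lay at a median of 6130 bp, and 15 regions (4.59%) had one within 500 bp. The regions are spread over all autosomes, with 9 to 28 on each, and 4 lie on X. Of these, 9 lie on chromosome 18, whose promoter windows were not used here.

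A weaker peak in the pooled untreated knockout data was common. The merged knockout list, made from 73.7 M fragments against 97.6 M for the wild-type list, had a peak at 203 of the 327 regions (62.1%). In those 203 the median −log10 q was 7.7 in the merged knockout list and 23.4 in the merged wild-type list, and the median fold enrichment over local background was 3.52 and 4.83. The knockout −log10 q was the lower of the pair in 203 of 203 and the fold enrichment in 187 of 203. The depths differ, and the merged lists pool the libraries that the rule used, so a lower knockout score is largely built in by the choice. These scores are set side by side and not tested. The remaining 124 regions (37.9%) had no merged knockout peak. The authors' final lists, a subset of the merged peaks chosen in a way not given in the sources used here, kept 325 of the 327 in wild type and 1 in knockout, in Eipr1. They come from the same untreated libraries, so this contrast is not independent of the rule.

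Zfp292, a zinc finger gene, held the region with the highest merged knockout score. Its region on chromosome 4 (34881005 to 34881510) had pileups of 54, 108, 109 and 86 in the untreated wild-type libraries. The −log10 q was 88.8 in the merged wild-type and 43.4 in the merged knockout list, but fold enrichment was not lower in knockout (4.11 and 4.21). The region had a peak in all 8 activated libraries, with pileups of 34 to 56 in wild type and 35 to 43 in knockout. Tex2, Dthd1, Gpm6b and Rgma followed in the merged knockout list, with −log10 q of 31, 30.1, 30.1 and 29, against 67.7, 62.4, 60.7 and 48.4 in the merged wild-type list. Fold enrichment was higher in the knockout list at Rgma (4.72 against 4.24) and lower there at Tex2, Dthd1 and Gpm6b. Adora2a, the adenosine receptor gene, lay 19241 bp from a region on chromosome 10 (75354033 to 75354700) with untreated pileups of 16, 40, 41 and 26 and a peak in 2 wild-type and 0 knockout libraries at 72 h. Its −log10 q was 71.9 in the merged wild-type and 27.3 in the merged knockout list. A region in Prkcb, a protein kinase C gene, on chromosome 7 (122459374 to 122460187) had 21, 35, 37 and 40 and a peak in 3 libraries of each genotype at 72 h. Fndc3b held one on chromosome 3 (27461046 to 27461806) with 47, 61, 44 and 50 and a peak in 4 wild-type and 2 knockout libraries. In all, 19 regions reached a −log10 q of 20 in the merged knockout list.

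**Figure D2:**
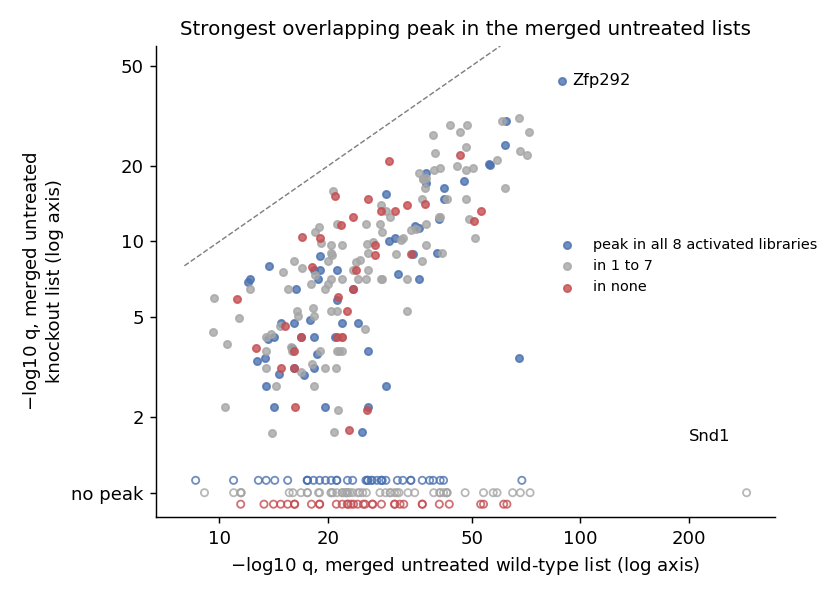
−log10 q of the strongest overlapping peak in the merged untreated wild-type list (horizontal, log axis) and in the merged untreated knockout list (vertical, log axis) for the 327 regions, coloured by the number of activated libraries with a peak. Open points had no merged knockout peak and are drawn in 3 rows at the bottom, the dashed line marks equal values, and all 203 filled points lie under it.

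The strongest regions without a merged knockout peak were nearest to Snd1 (2 regions), Tmem144, Serhl and Tomm20. At Tmem144, 1197 bp outside the gene on chromosome 3 (79853984 to 79855071), untreated pileups were 26, 39, 29 and 28 and all 8 activated libraries had a peak, at 35 to 41 in wild type and 21 to 38 in knockout. At Serhl, a serine hydrolase-like gene on chromosome 15 (83113036 to 83113470), untreated pileups were 25, 33, 30 and 37, and at 72 h a peak was called in 1 wild-type and 3 knockout libraries. At Tomm20, a mitochondrial import receptor gene on chromosome 8 (126935827 to 126936393), untreated pileups were 24, 37, 42 and 38, and 1 library of each genotype had a peak at 72 h.

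After 72 h of activation every library, of either genotype, had a peak at a smaller share of the 327 regions than of all tested regions. Knockout libraries 1 to 4 had a peak at 156, 177, 174 and 165 of the 327 regions, and wild-type libraries 1 to 4 at 203, 205, 217 and 185. In percent this is 47.7 to 54.1 in knockout and 56.6 to 66.4 in wild type, so the groups do not overlap. Over the 83743 tested regions the ranges overlapped, at 61.1 to 66.9 percent in knockout and 66 to 75.2 percent in wild-type libraries. The mean share over the activated libraries was 61.9 percent in wild type and 51.4 percent in knockout for the 327 regions. It was 65.1 and 57.6 for the 1568 regions with 1 untreated knockout library. For the 1045 regions with 3 untreated wild-type and no untreated knockout library it was 53.0 and 45.6. A gap in this direction is therefore not particular to the 327. The lists at 72 h held 59243 to 69086 wild-type and 55519 to 61478 knockout peaks, and the differences between the gaps were not tested. The part of list length in the gap at the 327 regions was not tested.

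**Figure D3:**
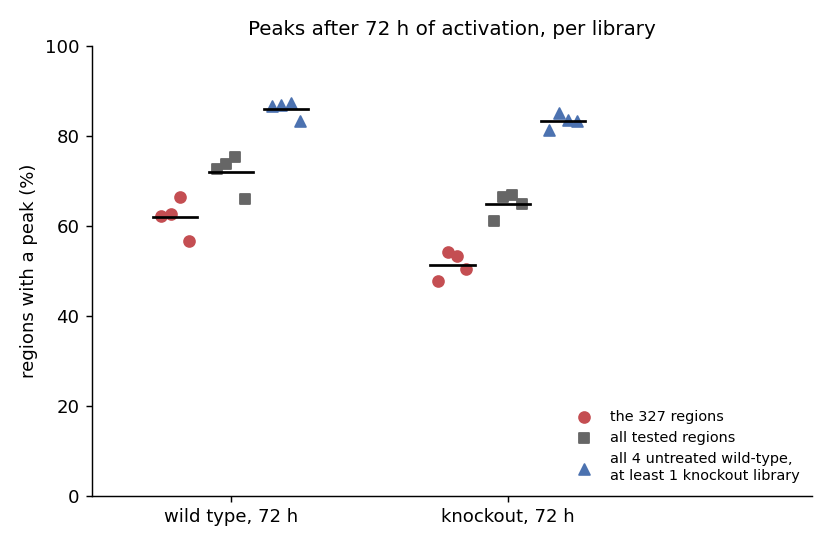
Share of regions with a peak in each activated library (percent, points; bars are means of 4 libraries) for the 327 regions, all tested regions, and regions with a peak in all 4 untreated wild-type and at least 1 untreated knockout library. Of the sets drawn, the 327 regions have the lowest share in every library, 47.7 to 54.1 percent in knockout and 56.6 to 66.4 percent in wild type.

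At 231 of the 327 regions (70.6%) at least 1 activated knockout library had a peak, and at 103 (31.5%) all 4 did. That pattern, no peak in untreated and a peak in all 4 activated knockout libraries, holds for 12.9% of tested regions. In wild type, 142 regions (43.4%) had a peak in all 4 activated libraries and 73 (22.3%) had none, against 3.35% of tested regions with a peak in all 4 untreated and no activated wild-type library. With equally long lists in every library, which left 84 regions, the shares with a peak in all 4 activated libraries turned to 19.0% in wild type and 20.2% in knockout. The 12.9% and 3.35% are shares of all tested regions, whereas all 327 meet the untreated part of each pattern by rule. They are therefore not like for like with the shares of the 327. The share of tested regions with a peak in at least 1 activated knockout library is not given here. The rule used the untreated calls of both contrasts, so nothing is read from these shares. Both genotypes together, 95 regions (29.1%) had a peak in all 8 activated libraries, 68 (20.8%) in none and 164 (50.2%) in some. Of all tested regions, 44.6% had a peak in all 8 and 8.04% in none. With equally long lists the share of chosen regions with none was 40.5%, and that of tested regions is not given here. Wild type had the larger number of libraries with a peak at 100 regions (30.6%), knockout at 24 (7.34%), and 203 had equal numbers. Wild type also had the larger number at 26.3% of all tested regions and knockout at 10.5%.

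The genotypes were compared at 72 h by a two-sided Fisher's exact test on how many libraries of each genotype had a peak, adjusted by Benjamini-Hochberg over the 83743 regions. None of the 327 regions passed an adjusted p under 0.05 (Fisher's exact test, 0 of 327), nor did any of the 83743 (0.0%). The smallest p that 4 against 4 libraries allow is 0.0286 in this exact test, and 47854 separated regions would be needed for it to pass the adjustment. At an unadjusted p under 0.05 there were 2 of the 327 (0.612%), both with a peak in all 4 wild-type and no knockout library, a pattern shown by 0.462% of tested regions. The reverse pattern was met by 0 of the 327 and by 0.0299% of tested regions. The share among the 327 is near that background. With peaks of a −log10 q of at least 5 it was 4 of 248 regions (1.61%), and with equally long lists 0 of 84. Without wild-type library 1 or 4 at 72 h it came to 4 regions, without wild-type library 2 or 3 or knockout library 3 to 3 regions. The share of tested regions with this pattern under these settings is not given here, so 0.462% is no background for them.

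**Figure D4:**
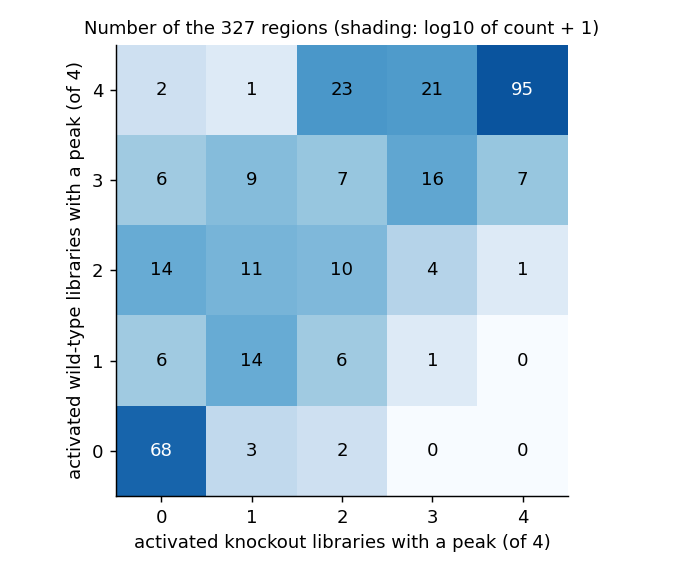
Number of the 327 regions by the count of activated knockout libraries (horizontal) and activated wild-type libraries (vertical) with a peak, shaded by log10 of the count plus 1. The corners hold 95 regions with a peak in all 8 and 68 with a peak in none, and 2 regions separate the genotypes completely.

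The 2 separating regions lie in Snd1 and Agap3. No other of the 111393 merged regions had a peak in all 8 wild-type and none of the 7 knockout libraries, and 0 regions showed the reverse. Snd1 encodes a tudor-domain nuclease that acts as a transcriptional coactivator and in RNA silencing complexes. Its region on chromosome 6 (28929168 to 28929750) had the highest merged untreated wild-type score of all 327, a −log10 q of 289 where the next region had 88.8. Pileups were 66, 186, 45 and 115 in untreated and 22, 66, 17 and 43 in activated wild-type libraries 1 to 4. Neither merged knockout list had a peak there. Agap3, an Arf GTPase-activating protein gene, holds the other on chromosome 5 (24486031 to 24486633), with pileups of 18, 23, 25 and 19 untreated and 15, 20, 19 and 19 activated. There the merged activated knockout list did have a peak, with a −log10 q of 9.24 against 23.8 in wild type.

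Snd1 was the only gene nearest to 3 of the 327 regions, and 6 genes (Cdk19, Ctnnd1, Dthd1, Sh3pxd2b, Slc37a3 and Trim33) were nearest to 2. The second Snd1 region (28931866 to 28932197) had untreated pileups of 21, 79, 25 and 59, and at 72 h a peak in wild-type libraries 1, 2 and 3 and in knockout library 4. The third (28920986 to 28924256) had 22, 41, 13 and 31 and no peak in any activated library. None of the 3 had a merged untreated knockout peak. All lie on the same side of Irf5 (29526130 to 29541869), 593933 to 601874 bp from its nearer boundary. They are 3 of 26 tested regions in Snd1 and the only ones of the 327 among 138 tested regions within 1 Mb of Irf5 (2.17%, against 0.39% overall); 1 of the 26 had a peak in all 15 libraries.

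The Snd1 regions also differed most between the wild-type libraries themselves. Per M fragments kept in each library, the untreated peak height of the strongest region was 2.94, 6.41, 1.82 and 4.55, a ratio of highest to lowest of 3.52. The median ratio over the 327 regions was 1.49, and the 3 Snd1 regions had the highest, the third highest and the fourth highest ratio of all. In each of them library 2 was highest and library 4 next. At 72 h the strongest region again stood at 0.892, 2.39, 0.651 and 1.67 in libraries 1 to 4, with library 2 highest, library 4 next and library 3 lowest. At Agap3 the ratio was 1.34. The labels do not say whether libraries of the same number share an animal, and the part of any shared source was not tested.

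**Figure D5:**
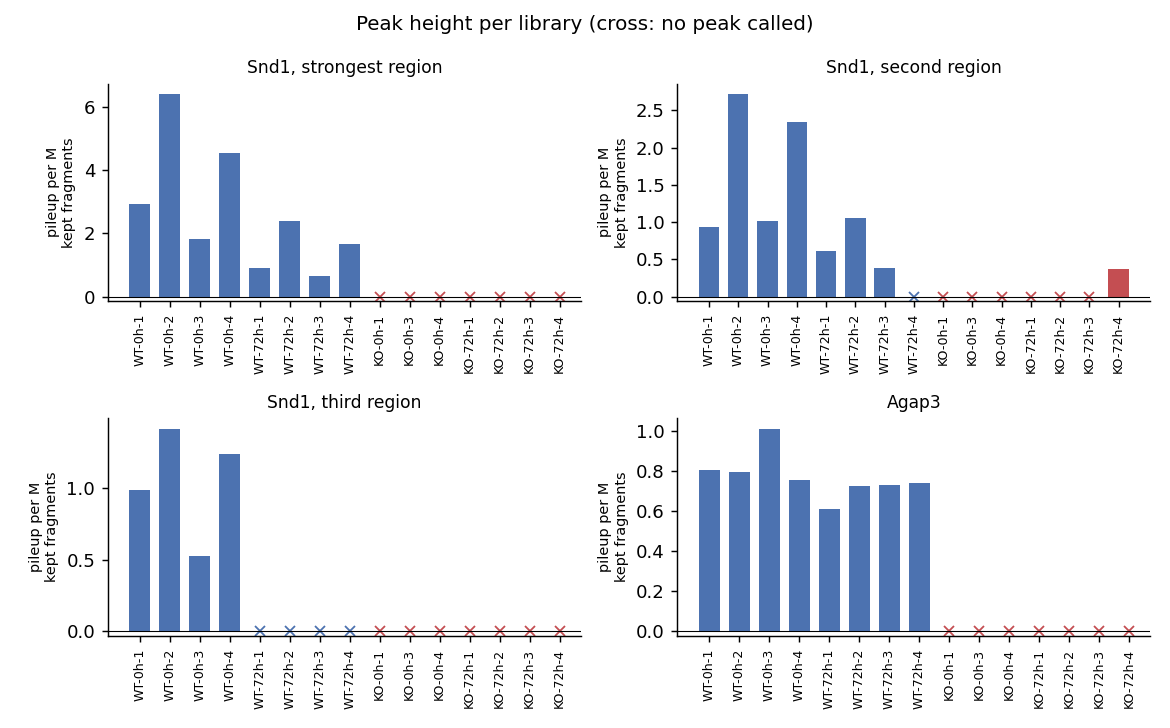
Peak height, as summit pileup per M kept fragments (vertical), in each of the 15 libraries (horizontal; wild type blue, knockout red) for the 3 Snd1 regions and the Agap3 region. Crosses mark libraries with no called peak; at the strongest Snd1 region, untreated wild-type heights run from 1.82 to 6.41 and all 7 knockout libraries have none.

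With the looser rule of at least 3 wild-type and at most 1 knockout library at 72 h, 18 of the 327 regions (5.5%) qualified, against 5.77% of tested regions, and 1 (Serhl) met the reverse, against 1.11%. They included, beside Snd1 and Agap3, regions in Inpp4b, a phosphoinositide phosphatase gene, Nf2, the merlin gene, and Vdac1, a mitochondrial channel gene, which are named after their values were seen. At 16 of the 18 the merged activated knockout list had a peak. A further one of them, on chromosome 12 (115663851 to 115664335), lies inside the immunoglobulin heavy-chain locus Igh and 383379 bp from the nearest protein-coding gene, and had a peak in 4 wild-type and 1 knockout library at 72 h.

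No knockout list, single or merged, at either time, had a peak at 34 of the 327 regions (10.4%). Absence from the single untreated knockout lists is the rule itself, and the merged untreated list pools the same libraries. The share of tested regions in no knockout list is not given here, so nothing is read from this count. In 30 of the 34, no activated wild-type library had a peak either. The strongest of these 30 was in Atp6v1g1, a subunit of the vacuolar proton pump, on chromosome 4 (63548028 to 63548769), with even pileups of 55, 64, 52 and 54. Regions nearest to Dyrk3, Evi5 and Cert1 followed, with merged −log10 q of 61.3, 53.9 and 52.9. At Dyrk3, a kinase gene, the pileups were 32, 29, 39 and 33. Ptpn4, a tyrosine phosphatase gene, likewise had no activated peak, with 21, 27, 22 and 28 untreated, but a merged knockout −log10 q of 13.2. The other 4, with a peak in at least 1 activated wild-type library, were in Snd1, Jade1, Prkcq and Osbpl11. Prkcq encodes the protein kinase C isoform of T cell receptor signalling, and its region on chromosome 2 (11238158 to 11238541) had pileups of 13, 12, 12 and 19 untreated and a peak in 2 activated wild-type libraries.

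The regions with a peak in all activated libraries and those with a peak in none are set side by side. Of the 95 with a peak in all 8, 15 (15.8%) lay no further than 1 kb from a gene boundary. Their median width was 821 bp. Of the 68 with a peak in none, 3 (4.41%) lay there, and the median width was 493 bp. Their median merged untreated wild-type −log10 q was 23.4 in both. A merged untreated knockout peak was present at 57 of the 95 (60%) and 34 of the 68 (50%). These classes were formed from the calls and carry no test, and the width of a merged region grows with the number of libraries that have a peak in it. A wider region also reaches a boundary more easily, since the distance runs from its edge. The same split over tested regions is not given here.

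In the merged activated wild-type list, 7 of the 327 regions stood in the top 10 percent. The highest lay in Gstcd on chromosome 3 (133078047 to 133078919), with a −log10 q of 602 in wild type and 534 in knockout at 72 h, against 16.1 and 3.14 untreated. It is named after its values were seen. Tbk1, the kinase that activates interferon regulatory factors in innate sensing, had a region on chromosome 10 (121580278 to 121581251) with untreated pileups of 18, 18, 21 and 22. At 72 h these were 75, 90, 123 and 68 in wild type and 49, 66, 71 and 68 in knockout. The wild-type and knockout values overlap.

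Of the genes in 19 lists drawn up for T cell biology (322 genes, 319 found in the reference), 18 regions had one as nearest gene within 100 kb, which is 0.548% of the 3286 tested regions near such genes, against 0.39% overall. The genes of naive and quiescent T cells had 5 of 497 tested regions (1.01%). Bach2 and Satb1, which hold naive cells in a resting state, had no peak at their regions in any single activated library. Untreated pileups were 13, 14, 15 and 26 at Bach2 and 29, 33, 37 and 42 at Satb1. At Bach2 both merged activated lists did have a weak peak, with a −log10 q of 4.85 in wild type and 4.85 in knockout. An untreated knockout library peak lay 286 bp from the Bach2 region. Ets1, a T lineage transcription factor, had 43, 62, 53 and 53, and at 72 h a peak in 1 library of each genotype. Foxo1, the forkhead factor that sustains homing and survival genes, had 13, 22, 15 and 18, and at 72 h a peak in 1 wild-type library; peaks of the 4 untreated libraries shared no base there.

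Effector and signalling genes were touched singly. Tbx21, the master factor of Th1 cells, had a region inside the gene with untreated pileups of 16, 14, 25 and 16 and no activated peak. Nfatc2, a factor of T cell receptor signalling, had 12, 22, 20 and 23, and at 72 h 23, 31, 22 and 18 in wild type and 13, 16, 11 and 15 in knockout. Per M kept fragments these Nfatc2 heights overlapped, at 0.7 to 1.12 and 0.47 to 0.702. Lag3, an inhibitory receptor gene, had 17, 23, 19 and 22 and a peak in 4 wild-type and 3 knockout libraries at 72 h. Il1rl1, the IL-33 receptor gene, had 23, 20, 26 and 17 and a peak in 2 libraries of each genotype.

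Cish, a feedback inhibitor of cytokine signalling, had untreated pileups of 21, 26, 34 and 29, and at 72 h 118, 150, 143 and 116 in wild type and 81, 86, 96 and 94 in knockout. Per M kept fragments Cish stood at 4.51 to 5.47 in wild type and 3.47 to 4.4 in knockout. These ranges do not overlap, and no test was made of them. The share of other regions with heights that separate in this way at 72 h is not given here. Cish is therefore not set apart from background. Among all tested regions, wild type had the larger number of activated libraries with a peak at 26.3% and knockout at 10.5%. Wild-type libraries at 72 h held 24.7 M to 27.6 M fragments against 21.4 M to 24.8 M in knockout. Birc3, an inhibitor of apoptosis gene, had 20, 25, 19 and 22, with a peak in all 8 activated libraries. Rictor, the defining subunit of mTORC2, had 10, 20, 11 and 13 just outside the gene (192 bp) and no activated peak. Thy1, a T cell surface glycoprotein gene, lay 54986 bp from its region and had a peak in 1 library of each genotype at 72 h.

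Inpp4b, Smarca2, a chromatin remodelling ATPase gene, and Blnk, a B cell adaptor gene, had 1 region each. Blnk had 12, 25, 19 and 15 untreated and a peak in 2 libraries of each genotype at 72 h. No region was nearest to a gene of the Th17, regulatory T cell, interferon-stimulated, interferon regulatory factor, myeloid, or CD8 and NK cell lists, which had between 59 and 199 tested regions each.

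The 10 regions nearest the top by score within 1 kb of a gene boundary were at Daglb, Shcbp1l, Efna1, Zfp947, Ccnd1, Slc35f2, Crtc1, Rin1, Nxph4 and Rac1. All 10 had a peak in at least 2 activated wild-type libraries and at least 1 activated knockout library. Rin1, whose promoter window is printed with the sequences, had 11, 22, 23 and 33 untreated, and at 72 h 48, 59, 53 and 38 in wild type and 44, 39, 40 and 38 in knockout. Ccnd1, which encodes the cell cycle regulator cyclin D1, holds a region that also lies 949 bp from the gene LTO1, with 17, 31, 24 and 20 untreated and a peak in 3 wild-type and 2 knockout libraries. Rac1, a small GTPase gene, had 37, 50, 43 and 39 and a peak in 4 wild-type and 2 knockout libraries. Akap7, the other gene with a shown window near the top of the ranking, had 16, 15, 12 and 14 untreated. The merged wild-type peak that gave it a −log10 q of 67.6 has its summit outside the region, which holds for 6 of the 327 in all, Efna1 included. At 72 h Akap7 had 52, 75, 86 and 61 in wild type and 43, 47, 51 and 42 in knockout. Per M kept fragments these Akap7 heights overlapped, at 2.11 to 3.29 and 1.9 to 2.18. Peaks of the 4 untreated wild-type libraries shared no base in the Akap7 region, and an untreated knockout peak lay 441 bp from it.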

How the data were processed

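ATAC-seq peak lists of 15 libraries and 8 merged or final lists (4 groups) were used. The submitters' processing notes name Trim Galore 0.5.0, Bowtie2 2.2.9, HOMER 4.10.4 and the build mm10. Per the file headers, MACS2 2.1.1.20160309 called peaks on read pairs with no control, kept 1 fragment per position and used a q value cutoff of 0.05; no Tn5 shift is recorded there. The deposited pileup is the fragment coverage signal at a peak's summit, not scaled between libraries. The deposited fold enrichment is the ratio of pileup to local background. Significance was deposited as −log10 p and −log10 q, from MACS2 per the file headers. Merged lists were called on pooled libraries, per the labels. Every final peak carries a name found in its merged list, but how these were chosen is not stated. Wild-type library 4 came from an alignment numbered 5, per the file headers.

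Lists were merged at an overlap of 1 bp with Python 3.11.15, pandas 2.3.3 and NumPy 2.4.6. Where a region held several peaks of a list, the one with the highest −log10 q gave its values. Percentiles are ranks within a list. Only genotype at 72 h was tested, with two-sided Fisher's exact tests (SciPy 1.17.1) and Benjamini-Hochberg adjustment (statsmodels 0.14.6) over the 83743 regions with a peak in at least 2 libraries. The procedure was tested on simulated data. Regions were assigned to the nearest of 21883 protein-coding genes of GRCm38.p6, within 100 kb.

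The regions and gene lists were chosen with earlier results of these data known. Named regions were the 12 top regions by −log10 q of the merged untreated wild-type peak, the highest by the same score near gene boundaries (10), in all, in none or only in wild-type activated libraries and without a merged knockout peak (5 each), the 5 with the highest merged knockout score, up to 4 per list, and genes nearest to several regions. Of the list genes, 3 had no match. Alternatives were a stricter score (−log10 q of 5), equally long lists, overlap of a share of 0.5, autosomes, leaving out each library, other distances and looser rules. A shared base of all 4 wild-type peaks and a merged summit inside the region were added after seeing the data. Depth of 20.5 M to 29.0 M fragments limits weak peaks. Sequences came from RefSeq promoter windows (GRCm38.p6). Sequence of regions outside promoters was not analysed here. Results for a few genes are not reported here.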

Additional observations from a re-analysis of the deposited data

How the results depend on the processing

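A −log10 q of at least 5 in every list gave 248 regions, of which 25.8% had a peak in no activated library and 81.0% a merged knockout peak. An equal number of peaks (29994 per library) gave 84 regions. Of these, 19.0% had a peak in all 4 activated wild-type libraries, 20.2% in all 4 activated knockout libraries, 0.0% in all wild-type and no knockout, 40.5% in no activated library, 89.3% a merged knockout peak, and 5.95% lay within 1 kb of a gene boundary. The cause was not tested.

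The mirrored rule gave 4 regions, a rule allowing 1 knockout library 1895, and at least 3 wild-type libraries with no knockout library 1372. Counting only merged knockout peaks with a −log10 q of at least 5 gave 42.8%, and the final knockout list 0.306%. A boundary distance of 5 kb gave 26.9%, and at least 3 wild-type against at most 1 knockout library at 72 h 5.5%. Autosomes only moved no value beyond its 95% exact binomial interval, which covers counting error only. Overlap of at least 0.5 of the region or the peak could change no value. Each library peak lies wholly inside its merged region, so this setting is no check. A base shared by all 4 wild-type peaks, an alternative chosen after seeing the data, kept 304 regions, and a merged knockout summit inside the region gave 61.8%.

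Leaving out 1 library gave 326 to 1321 regions. Shares ranged from 39.7% to 49.4% in all activated wild-type, 29.5% to 38.9% in all activated knockout, 0.375% to 1.23% in all wild-type and no knockout, and 17.4% to 24.0% in no activated library. A merged knockout peak was present at 54.3% to 87.7%, and 10.2% to 12.5% lay within 1 kb of a boundary. Calls by genotype at 72 h stayed at 0 in every setting run. With the replicate number as a block (an exact paired test, replicate block) they were 0 as well, where the smallest p is 0.125 in that exact test. Same-numbered activated libraries did not deviate together (correlations from −0.036 to 0.024), so the numbers were not taken as pairs. At 20 kb in place of 100 kb, 17 of 19 gene lists had a like count, and 16 in place of 18 regions remained near list genes.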

Other observations

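Over the 327 regions, untreated peak height per M kept fragments was highest in wild-type library 2 at 112 regions, in library 4 at 91, in library 3 at 85 and in library 1 at 39, and it was lowest in library 1 at 132. After the strongest Snd1 region, the ratio of highest to lowest wild-type height was largest at a region 73386 bp from Mrpl39, a mitochondrial ribosomal protein gene (2.93), then at the other Snd1 regions (2.91 and 2.69) and at Rin1 (2.66). At the Mrpl39 region the heights were 0.446, 0.759, 1.05 and 1.31 in wild-type libraries 1 to 4, and at 72 h a peak was called in 0 wild-type and 2 knockout libraries.

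The region farthest from any protein-coding gene lay on chromosome 2 (8673937 to 8674421), 1182657 bp from Gata3, the gene of a T cell transcription factor. It had untreated pileups of 15, 21, 18 and 19 and, at 72 h, a peak in 4 wild-type and 2 knockout libraries. The regions of both paragraphs are named after their values were seen.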
